A study of Mus musculus with 6 samples.

Results

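The IL-6 family genes examined here were 10 of the 24061 gene rows counted in RNA-seq libraries of mouse lung tissue. They are the 4 ligand genes Il6, Il11, Lif and Osm, the ligand-specific receptor chains Il6ra, Il11ra1, Lifr and Osmr, the shared receptor chain Il6st and the feedback inhibitor Socs3. They were chosen by name, from the known make-up of the family, with earlier results of these data known. All 10 had a row and all 10 passed the filter on low counts. The 2 groups were lungs of genotype CCSP/TGFalpha and of genotype CCSP/-, with 3 libraries each, and every mouse had been on doxycycline for 3 weeks. CCSP, the club cell secretory protein, lends its promoter to drive transgenes in lung epithelium, and both groups carry the CCSP element, while TGFalpha, an EGF receptor ligand, is named only in the genotype of CCSP/TGFalpha lungs. Age, sex, strain background and the number of animals per library are not in the labels, so p-values measure the spread between these libraries, which may be technical.

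IL-6 family cytokines bind a ligand-specific receptor chain that then pairs with gp130, the product of Il6st. The complex activates JAK kinases and the transcription factor STAT3, which induces Socs3, whose product in turn blocks gp130. In lung these cytokines are studied for roles in inflammation, epithelial repair and fibrosis. Il6 and Il11 signal through gp130 pairs, Lif through gp130 with LIFR, and mouse Osm mainly through gp130 with OSMR.

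Libraries held between 21479006 and 24914322 counts. The mouse Tgfa row, which would hold transgene reads only where the transgene matches the mouse gene, was at 27.5 ± 2.09 CPM (counts scaled to library size) in CCSP/TGFalpha and 25.8 ± 2.94 CPM in CCSP/- lungs (SD, n = 3 each). The log2 fold change of 0.09 did not pass (edgeR adjusted p = 0.739). The origin of the transgene is not in the labels, so this row is no check of them. Lung epithelial markers were abundant in all 6 libraries, with summed levels of 14000 to 16000 CPM in CCSP/TGFalpha and 14200 to 19600 CPM in CCSP/- lungs over 10 genes, none of them at 0. Of these, 2 were lower, Scgb1a1, the CCSP gene itself (fold change 0.40, edgeR adjusted p = 0.0491), and Hopx, an alveolar epithelial marker (fold change 0.453, edgeR adjusted p = 0.0499), and 0 were higher. Replicate 1 of each group stood apart by skeletal muscle transcripts. The 10 muscle markers summed to 2640, 70.8 and 64.5 CPM in CCSP/TGFalpha replicates 1 to 3 and to 1530, 53.4 and 63.2 CPM in CCSP/- replicates 1 to 3. Results were therefore also computed without both of these libraries.

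No IL-6 family member passed an adjusted p of 0.05 with edgeR's quasi-likelihood test, out of 10 tested. Over all 16089 genes tested, 5.03% were higher and 3.29% were lower in CCSP/TGFalpha lungs at that threshold. The direction differed by member, and in whole lung fewer cells of a type and less RNA per cell cannot be told apart. Osmr and Lif were higher in all 3 CCSP/TGFalpha libraries than in any CCSP/- library, and Il6st and Il6ra were lower in all 3. Separation of that kind was found for 17.7% of all genes upward and for 15.5% downward. Without adjustment, 2 members were higher (Osmr and Lif) and 3 were lower (Il6st, Il6ra and Lifr) at p under 0.05, a threshold that 14.2% of all genes passed upward and 12.8% downward. With DESeq2, 1 member was higher (Osmr, adjusted p = 0.0112) and 1 was lower (Il6st, adjusted p = 0.0161). DESeq2 also called more genes as a whole, 1279 higher and 1224 lower of 16756 tested. With limma-voom none passed. The median log2 fold change of the 10 members was -0.35, beside 0.01 for all genes tested.

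**Figure D1:**
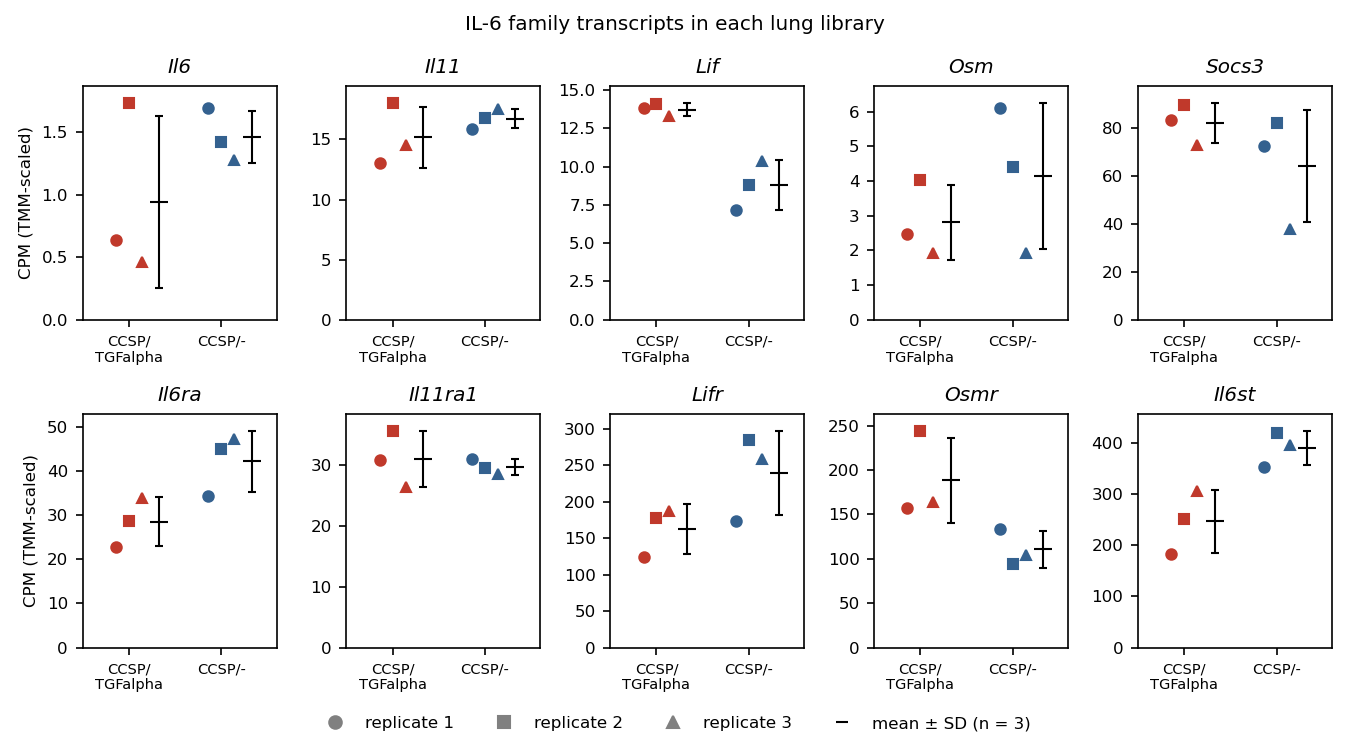
Levels of the 10 IL-6 family transcripts in each library, in CPM scaled by TMM, with CCSP/TGFalpha on the left of each panel, CCSP/- on the right, replicates by symbol and mean ± SD (n = 3) in black. Osmr and Lif lie higher in every CCSP/TGFalpha library, Il6st and Il6ra lie lower, and the other 6 transcripts overlap between groups.

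Among the ligands, Il6 was near the lower end of what these libraries can resolve. Il6 (gene ID 16193, chr5:30013114-30019975 on GRCm38), the inflammatory cytokine that gives the family its name, had 0.638, 1.73 and 0.461 CPM in CCSP/TGFalpha replicates 1 to 3, against 1.69, 1.42 and 1.28 CPM in CCSP/- replicates 1 to 3. These values rest on 11 to 42 reads per library, and the exact 95% Poisson interval of the lowest, 11 reads, runs from 5.49 to 19.7 reads, counting error only. CCSP/TGFalpha replicates 1 and 3 lay under every CCSP/- library, while replicate 2 lay above them all. The log2 fold change was -0.63 ± 0.58 (SE), with a 95% interval of -1.96 to 0.70 (edgeR adjusted p = 0.516). An interval this wide holds changes in both directions. Without CCSP/TGFalpha replicate 2 the log2 fold change was -1.40 (edgeR adjusted p = 0.196).

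Il11 (gene ID 16156, chr7:4772373-4782907), a cytokine that acts on stromal cells, was the most abundant of the 4 ligands per length of exon. It had 13.0, 18.0 and 14.5 CPM in CCSP/TGFalpha replicates 1 to 3, against 15.9, 16.8 and 17.5 CPM in CCSP/- replicates 1 to 3. The ranges overlap, with both the lowest and the highest value in CCSP/TGFalpha lungs. CCSP/TGFalpha over CCSP/- gave a fold change of 0.903, with a 95% interval of 0.683 to 1.19 (edgeR adjusted p = 0.627), so an increase above 1.19-fold lies outside the interval.

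Lif (gene ID 16878, chr11:4257568-4272514), a cytokine that signals through LIFR and gp130, was the ligand that separated the groups. It had 13.8, 14.1 and 13.3 CPM in CCSP/TGFalpha replicates 1 to 3, against 7.15, 8.80 and 10.4 CPM in CCSP/- replicates 1 to 3. Every CCSP/TGFalpha library was higher than every CCSP/- library, and the spread was narrow in CCSP/TGFalpha lungs (SD 0.414 CPM) and wider in CCSP/- lungs (SD 1.61 CPM). Its fold change of 1.57, with a 95% interval of 1.14 to 2.16, missed the threshold after adjustment over all genes (edgeR adjusted p = 0.0844). Across the 14 alternative settings the adjusted p lay between 0.0713 and 0.281 and the log2 fold change between 0.51 and 0.78.

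Osm (gene ID 18413, chr11:4236785-4241026), oncostatin M, a cytokine made mostly by leukocytes, varied widely within both groups. It had 2.47, 4.03 and 1.93 CPM in CCSP/TGFalpha replicates 1 to 3, against 6.10, 4.40 and 1.92 CPM in CCSP/- replicates 1 to 3. The lowest value of each group was nearly the same, and the 2 highest values were in CCSP/- lungs. The log2 fold change was -0.56 ± 0.48, with an interval of -1.65 to 0.53 (edgeR adjusted p = 0.479). With both libraries that hold muscle transcripts left out it was -0.09. As a sum, macrophage and monocyte markers had the same order of libraries within each group as Osm. Single markers did not all share that order, among them Mrc1 in CCSP/TGFalpha and Marco in CCSP/- lungs. The 10 markers summed to 2610, 15700 and 2470 CPM in CCSP/TGFalpha replicates 1 to 3 and to 17700, 7300 and 5670 CPM in CCSP/- replicates 1 to 3, with none at 0. Most of that sum was Chil3, a secreted alveolar macrophage protein, and without it the other 9 summed to 731, 1220 and 729 CPM in CCSP/TGFalpha and to 1270, 871 and 779 CPM in CCSP/- lungs. The 7 neutrophil markers summed to 102, 162 and 107 CPM in CCSP/TGFalpha and to 133, 147 and 219 CPM in CCSP/- replicates 1 to 3, and the 9 T and B cell markers to 73.4, 179 and 125 CPM in CCSP/TGFalpha and to 153, 154 and 151 CPM in CCSP/- replicates 1 to 3. CCSP/TGFalpha replicate 2 had the highest level of Osm, of Il6 and of all 3 immune marker sums in its group. In CCSP/- lungs the neutrophil sum rose from replicate 1 to 3, while Osm fell. The part of immune cell transcripts in the Osm and Il6 values was not tested.

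Promoters of 9 of the 10 members were matched in RefSeq on GRCm38.p6, the same assembly as mm10, with 12 start sites in all. The 250 bases before each start were searched on both strands for AP-1 (TGANTCA), the site of the Fos and Jun factors, for STAT (TTCNNNGAA), for NF-kB (GGGANTTTC) and for a TATA box (TATAAA). The motifs share no bases with each other at the matches found. AP-1 matches stood in 3 of the 12 windows (25%), beside 6.75% of 32851 windows of all genes. All 3 belong to ligand genes, while the ligand Osm had no window and was not searched. The 3 windows are shown with the AP-1 match in capitals, and in Il6 also the NF-kB match (0.941% of all windows).
Il6 chr5:30012864-30013113 (plus strand): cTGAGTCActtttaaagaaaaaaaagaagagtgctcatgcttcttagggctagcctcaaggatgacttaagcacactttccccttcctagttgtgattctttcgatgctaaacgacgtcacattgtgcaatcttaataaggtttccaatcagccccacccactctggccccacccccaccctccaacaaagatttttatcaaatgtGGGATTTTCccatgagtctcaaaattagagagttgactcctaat
Il11 chr7:4778142-4778391 (minus strand): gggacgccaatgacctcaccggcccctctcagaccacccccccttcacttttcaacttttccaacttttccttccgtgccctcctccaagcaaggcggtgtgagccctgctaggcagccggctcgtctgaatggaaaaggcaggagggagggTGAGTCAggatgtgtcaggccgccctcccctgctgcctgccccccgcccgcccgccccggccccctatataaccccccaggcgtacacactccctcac
Lif chr11:4257318-4257567 (plus strand): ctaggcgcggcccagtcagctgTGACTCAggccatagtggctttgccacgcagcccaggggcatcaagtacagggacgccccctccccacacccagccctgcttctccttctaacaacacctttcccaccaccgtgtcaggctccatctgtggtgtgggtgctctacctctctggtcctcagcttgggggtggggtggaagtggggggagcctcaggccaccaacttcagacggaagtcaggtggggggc
The match lies 249 to 243 bases before the start in Il6, 98 to 92 before the start in Il11 (its inner start site) and 228 to 222 before the start in Lif. Of these 3 ligands with an AP-1 match, Lif was higher in all CCSP/TGFalpha libraries, while Il6 and Il11 overlapped between groups. A match of letters is a description of the window and shows no binding.

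Among the ligand-specific receptors, Osmr and Lifr differed in direction. Osmr (gene ID 18414, chr15:6813568-6874968), the chain that pairs with gp130 for oncostatin M, had 157, 244 and 164 CPM in CCSP/TGFalpha replicates 1 to 3, against 134, 94.2 and 104 CPM in CCSP/- replicates 1 to 3. Every CCSP/TGFalpha library was higher than every CCSP/- library, and CCSP/TGFalpha replicate 2 was the highest of all 6. This was a fold change of 1.70 with a 95% interval of 1.20 to 2.41 (edgeR adjusted p = 0.069). It had the smallest adjusted p of the 10 members. DESeq2 called it (adjusted p = 0.0112), and edgeR did not in any of the 6 fits with 1 library left out (adjusted p from 0.0571 to 0.225). With both muscle-bearing libraries left out the log2 fold change was 1.03 (edgeR adjusted p = 0.0613), beside 0.77 with all 6. In that fit the log2 fold changes of Lif, Il6st, Il6ra and Lifr were 0.52, -0.55, -0.56 and -0.58 (edgeR adjusted p from 0.13 to 0.281). With all 6 libraries they were 0.65, -0.66, -0.57 and -0.55.

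Lifr (gene ID 16880, chr15:7090610-7197489), the chain that pairs with gp130 for LIF, had 124, 177 and 187 CPM in CCSP/TGFalpha replicates 1 to 3, against 174, 285 and 258 CPM in CCSP/- replicates 1 to 3. The groups overlapped at CCSP/- replicate 1, which lay under CCSP/TGFalpha replicates 2 and 3. The fold change was 0.681 with a 95% interval of 0.471 to 0.985 (unadjusted p = 0.0431, edgeR adjusted p = 0.169). The log2 ratio of Osmr to Lifr counts within a library, which no scaling affects, was 0.34, 0.46 and -0.19 in CCSP/TGFalpha replicates 1 to 3, against -0.37, -1.60 and -1.31 in CCSP/- replicates 1 to 3. All 3 CCSP/TGFalpha ratios were higher than all 3 CCSP/- ratios, with CCSP/TGFalpha replicate 3 and CCSP/- replicate 1 the closest pair. The ratio joins a member with higher levels and a member with lower levels, so it repeats their opposite directions and is no separate evidence. How many other gene pairs separate in this way was not computed. The mean log2 ratio was 0.20 ± 0.35 in CCSP/TGFalpha and -1.09 ± 0.64 in CCSP/- lungs (SD, n = 3 each), a difference of 1.30. The 2-sided exact permutation test gave p = 0.1, the smallest that 3 libraries against 3 allow. With 1 library left out the difference lay between 1.04 and 1.66.

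Il6ra (gene ID 16194, chr3:89869324-89913196), the chain that binds IL-6, had 22.9, 28.7 and 34.0 CPM in CCSP/TGFalpha replicates 1 to 3, against 34.4, 45.1 and 47.3 CPM in CCSP/- replicates 1 to 3. Every CCSP/TGFalpha library was lower, although CCSP/TGFalpha replicate 3 and CCSP/- replicate 1 nearly met. Its fold change was 0.675 with a 95% interval of 0.493 to 0.924 (edgeR adjusted p = 0.112). An antisense gene overlaps 2.8% of the exon bases of Il6ra, and since no strand setting is given its reads cannot be told apart there.

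Il11ra1 (gene ID 16157, chr4:41760443-41769473), the chain that binds IL-11, had 30.8, 35.5 and 26.4 CPM in CCSP/TGFalpha replicates 1 to 3, against 31.0, 29.4 and 28.5 CPM in CCSP/- replicates 1 to 3. The CCSP/- values lay inside the CCSP/TGFalpha range. Its fold change was 1.04 with an interval of 0.810 to 1.34 (edgeR adjusted p = 0.836). The row is uncertain because the mouse genome holds near copies of this gene. Of the 50-base stretches in its transcripts 46.3% also occur in Gm13305 and 15.8% in Il11ra2. Those rows had similar counts, with 642 to 954 reads in CCSP/TGFalpha and 646 to 924 reads in CCSP/- libraries for Gm13305, and 684 to 1014 reads in CCSP/TGFalpha and 734 to 992 reads in CCSP/- libraries for Il11ra2. Il11ra1 itself had 629 to 863 reads in CCSP/TGFalpha and 625 to 771 reads in CCSP/- libraries.

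Il6st (gene ID 16195, chr13:112464070-112506860), the shared gp130 chain, had 183, 252 and 305 CPM in CCSP/TGFalpha replicates 1 to 3, against 353, 419 and 396 CPM in CCSP/- replicates 1 to 3. Every CCSP/TGFalpha library was lower than every CCSP/- library, and the spread was wider in CCSP/TGFalpha lungs (SD 61.1 CPM) than in CCSP/- lungs (SD 33.2 CPM). The fold change was 0.633 with a 95% interval of 0.458 to 0.875 (edgeR adjusted p = 0.0844). DESeq2 called it (adjusted p = 0.0161), while edgeR with 1 library left out gave adjusted p from 0.057 to 0.227.

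Endothelial markers moved with the lower receptor transcripts. The 10 endothelial markers summed to 1150, 1200 and 2130 CPM in CCSP/TGFalpha replicates 1 to 3, against 2290, 4210 and 3870 CPM in CCSP/- replicates 1 to 3. Of the 10, 5 were lower by the edgeR test (Pecam1, Tek, Kdr, Erg and Vwf), none was higher and none was at 0. In both groups replicate 1 had the lowest Il6st, Il6ra and Lifr level and the lowest endothelial sum of its group. Both of these libraries are the muscle-bearing ones. In CCSP/TGFalpha lungs the endothelial sums of replicates 1 and 2 were close (1150 and 1200 CPM). Of the 10 markers, Pecam1, Tie1, Erg, Cldn5 and Eng were lowest there in replicate 2, and the others in replicate 1. Between replicates 2 and 3 the order was also shared, except for Il6ra in CCSP/- lungs (45.1 and 47.3 CPM). Fibroblast and mesothelial markers were also higher as a sum in the group with more Osmr. These 10 markers summed to 6670, 8810 and 5560 CPM in CCSP/TGFalpha replicates 1 to 3, against 1740, 1850 and 1480 CPM in CCSP/- replicates 1 to 3, with 6 of 10 higher and none at 0. Most of the sum was collagen transcripts, and Pdgfra, Pdgfrb, Msln and Upk3b did not pass (log2 fold changes 0.29, -0.04, -0.30 and 0.76). CCSP/TGFalpha replicate 2 had both the highest sum and the most Osmr of its group. The full order within each group was not that of Osmr. CCSP/TGFalpha replicate 1 had a higher sum and slightly less Osmr than replicate 3 (157 and 164 CPM). CCSP/- replicate 2 had the highest sum and the least Osmr of its group. The part of either cell type in the receptor values was not tested.

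**Figure D2:**
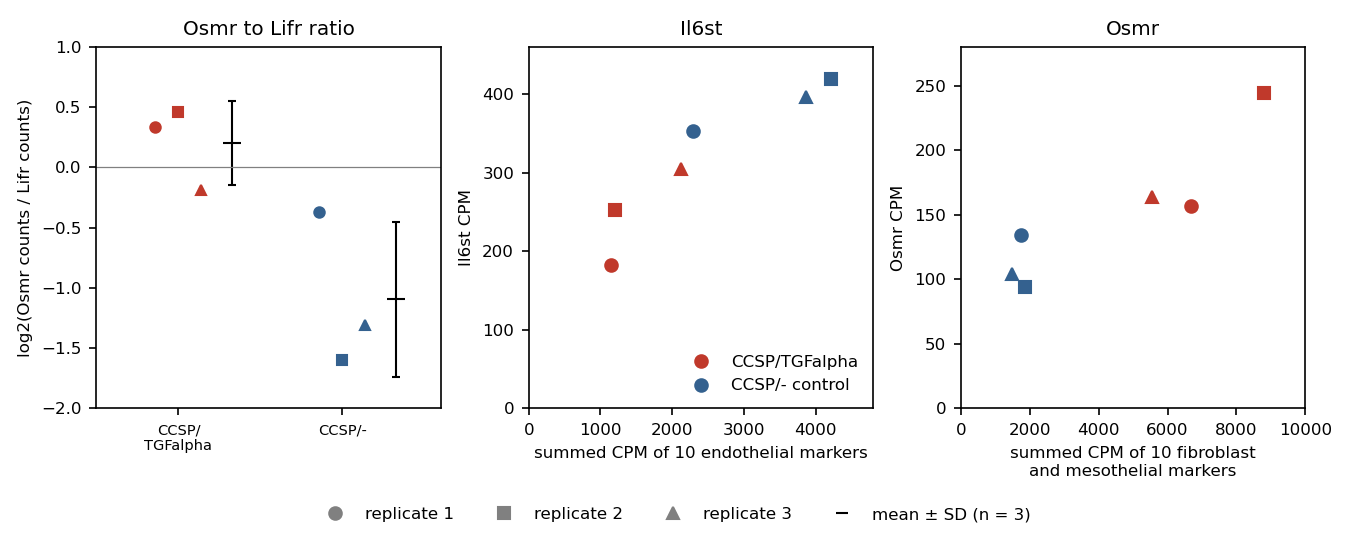
Left, the log2 ratio of Osmr to Lifr counts in each library with mean ± SD (n = 3), all 3 CCSP/TGFalpha values (-0.19 to 0.46) lying above all 3 CCSP/- values (-1.60 to -0.37). Middle and right, Il6st against the summed CPM of 10 endothelial markers and Osmr against that of 10 fibroblast and mesothelial markers, 1 point per library, with CCSP/TGFalpha lungs in red and CCSP/- lungs in blue.

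Socs3 (gene ID 12702, chr11:117966079-117970336), which encodes the STAT3-induced inhibitor of gp130 signalling, had 83.3, 89.4 and 72.9 CPM in CCSP/TGFalpha replicates 1 to 3, against 72.6, 82.0 and 37.9 CPM in CCSP/- replicates 1 to 3. The groups overlapped, and CCSP/- replicate 3 alone was far lower than the other 5 libraries. The fold change was 1.28 with a 95% interval of 0.834 to 1.95 (edgeR adjusted p = 0.433). Without CCSP/- replicate 3 the log2 fold change was 0.08, beside 0.35 with all 6 libraries. The Socs3 promoter window is shown because it was the only one of the 12 with a STAT match, which 7.02% of all windows hold. The capitals mark it, 154 to 146 bases before a start site that lies inside the gene span given above.
Socs3 chr11:117969367-117969616 (minus strand): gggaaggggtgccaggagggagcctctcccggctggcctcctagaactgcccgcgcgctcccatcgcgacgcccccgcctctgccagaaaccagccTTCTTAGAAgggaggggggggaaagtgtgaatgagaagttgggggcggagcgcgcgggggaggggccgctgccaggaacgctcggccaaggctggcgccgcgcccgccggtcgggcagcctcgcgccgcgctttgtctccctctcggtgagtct
No window of a member held a TATA box match of these letters, beside 12.4% of all windows.

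Per length of exon, Il6st, Socs3, Lifr and Osmr had higher mean levels than all 4 ligands in both groups, with the exon lengths of the GENCODE basic annotation and with those of the full annotation. The values that follow use the basic annotation. In CCSP/TGFalpha lungs the order of mean CPM per kb was Osmr 34.3, Socs3 32.1, Il6st 22.5, Lifr 15.7, Il11ra1 12.3, Il11 7.28, Lif 3.40, Il6ra 3.30, Osm 1.24 and Il6 0.388. In CCSP/- lungs it was Il6st 35.5, Socs3 25.1, Lifr 23.0, Osmr 20.2, Il11ra1 11.8, Il11 8.06, Il6ra 4.89, Lif 2.17, Osm 1.82 and Il6 0.602. Il6ra was under Il11 in both groups, and its range overlapped that of Lif in CCSP/TGFalpha lungs. Neighbours whose ranges overlapped in CCSP/TGFalpha lungs were Osmr and Socs3, Il6st and Lifr, Lifr and Il11ra1, and Lif and Il6ra. In CCSP/- lungs they were Socs3 and Lifr, Lifr and Osmr, and Lif and Osm. Osmr was higher than Il6st in all 3 CCSP/TGFalpha libraries (28.6, 44.4 and 29.8 against 16.7, 22.9 and 27.8 CPM per kb for replicates 1 to 3). It was lower than Il6st in all 3 CCSP/- libraries (24.4, 17.1 and 19.0 against 32.2, 38.2 and 36.1 CPM per kb). The order turned on the exon lengths, which for Osmr are 5491 bases in the basic and 12113 bases in the full annotation. With the full annotation, a choice made after seeing the data, Osmr was lower than Il6st in all 3 CCSP/TGFalpha libraries too (13.0, 20.1 and 13.5 against 16.5, 22.7 and 27.5 CPM per kb for replicates 1 to 3). Its mean was then 15.6 CPM per kb in CCSP/TGFalpha lungs, where Socs3 led at 28.3, and 9.15 CPM per kb in CCSP/- lungs, where Il6st led at 35.1. Il11ra1, at 4471 bases in place of 2510, was then at 6.91 CPM per kb in CCSP/TGFalpha and 6.63 CPM per kb in CCSP/- lungs, under Il11 in both groups. Which of Osmr and Il6st was more abundant per length in CCSP/TGFalpha lungs is thus not settled.

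**Figure D3:**
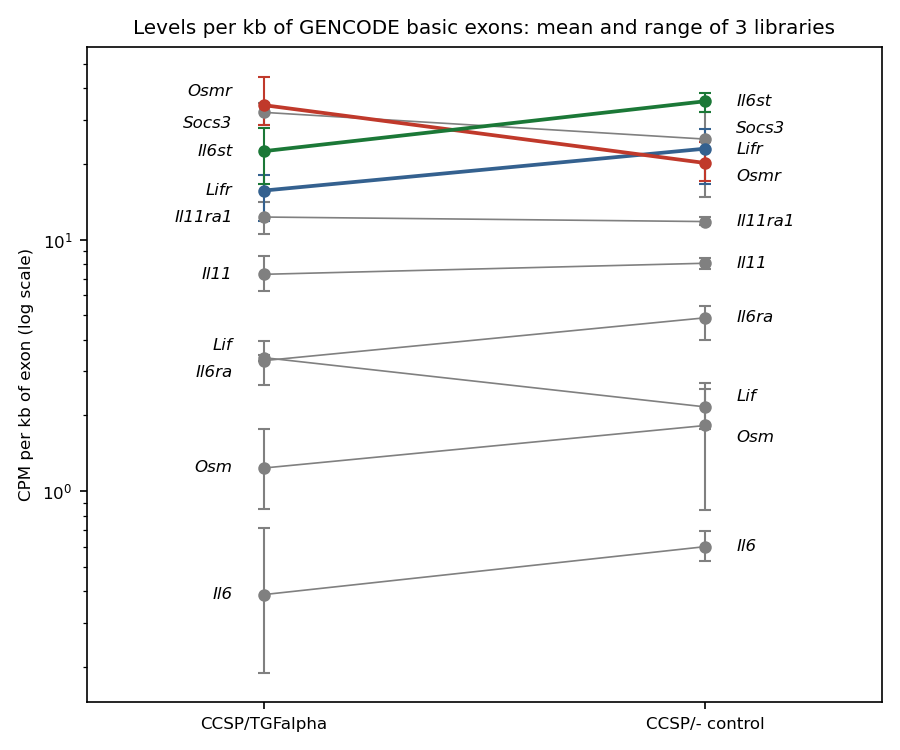
Mean and range (n = 3) of the length-scaled level of each member on a log axis, CCSP/TGFalpha on the left and CCSP/- on the right. With these basic-annotation exon lengths Osmr (red) is at 34.3 CPM per kb in CCSP/TGFalpha lungs and Il6st (green) at 35.5 CPM per kb in CCSP/- lungs, and with the full annotation Osmr is at 15.6 CPM per kb in CCSP/TGFalpha lungs, under Socs3 and Il6st.

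Most other genes of the pathway did not pass the test. Of 66 genes in 4 pathway lists 63 were tested, and 5 rose, 2 fell and 56 did not pass in CCSP/TGFalpha lungs, beside 5.03% higher and 3.29% lower over all genes. Their median log2 fold change was -0.06. At unadjusted p under 0.05 the counts were 10 higher and 5 lower, beside 14.2% higher and 12.8% lower over all genes. Without both muscle-bearing libraries 3 rose and 0 fell by edgeR, beside 307 and 166 over all genes. With 1 library left out 2 to 5 rose and 0 to 1 fell, beside 204 to 606 and 34 to 482 over all genes. With DESeq2 7 rose and 3 fell, beside 1279 and 1224 over all genes. The untested genes were Il31 with 0 reads in all 6 libraries, which allows up to 0.12 to 0.14 CPM per library, Il31ra with 5 to 20 reads, and Fgb with 28 reads in CCSP/TGFalpha replicate 3 and 0 reads in the other 5.

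Of 20 tested genes for JAK-STAT signalling and its inhibitors 0 rose and 1 fell by edgeR (2 and 1 at unadjusted p under 0.05), with a median log2 fold change of -0.09. Cish, a feedback inhibitor induced by STAT5, had 27.2, 35.3 and 37.3 CPM in CCSP/TGFalpha replicates 1 to 3, against 53.0, 63.4 and 51.3 CPM in CCSP/- replicates 1 to 3. All CCSP/TGFalpha libraries were lower, and the log2 fold change was -0.75 ± 0.17 (edgeR adjusted p = 0.0375). The call was lost in each of the 6 fits with 1 library left out, at edgeR adjusted p from 0.05 to 0.134, and without both muscle-bearing libraries (0.11). Stat3, the factor named most often with this family, averaged 222 ± 13.2 CPM in CCSP/TGFalpha and 184 ± 11.9 CPM in CCSP/- lungs (SD, n = 3 each). Its log2 fold change of 0.27 did not pass (edgeR adjusted p = 0.243).

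Of 23 tested STAT3 target and acute-phase genes 3 rose, 1 fell and 19 did not pass by edgeR, beside 5.03% higher and 3.29% lower over all genes. At unadjusted p under 0.05, 5 were higher and 4 lower, beside 14.2% and 12.8% of all genes. The median log2 fold change was -0.06. Timp1, a metalloproteinase inhibitor, had 300, 311 and 132 CPM in CCSP/TGFalpha replicates 1 to 3, against 9.88, 5.36 and 5.94 CPM in CCSP/- replicates 1 to 3. It rose by 5.13 ± 0.42 on the log2 scale (edgeR adjusted p = 0.00104) and passed in all 14 alternative settings. Saa3, an acute-phase serum amyloid, had 77.8, 62.0 and 20.6 CPM in CCSP/TGFalpha replicates 1 to 3, against 13.6, 5.55 and 3.47 CPM in CCSP/- replicates 1 to 3 (log2 fold change 2.82 ± 0.60, edgeR adjusted p = 0.0315). Serpina3n, a secreted protease inhibitor, had 234, 219 and 171 CPM in CCSP/TGFalpha replicates 1 to 3, against 74.6, 93.7 and 113 CPM in CCSP/- replicates 1 to 3 (log2 fold change 1.15 ± 0.20, edgeR adjusted p = 0.0158). Hp, the acute-phase haemoglobin-binding protein haptoglobin, went the other way. It had 318, 253 and 330 CPM in CCSP/TGFalpha replicates 1 to 3, against 493, 479 and 429 CPM in CCSP/- replicates 1 to 3 (log2 fold change -0.64 ± 0.16, edgeR adjusted p = 0.0492). The groups did not overlap for any of these 4 genes. Saa3 did not pass without CCSP/TGFalpha replicate 1 or 2 or CCSP/- replicate 2 or 3 (edgeR adjusted p from 0.0741 to 0.129). Serpina3n did not pass without CCSP/TGFalpha replicate 1 or 2 or CCSP/- replicate 2 (0.0521 to 0.0742), and Hp passed in none of the 6 fits with 1 library left out (0.0687 to 0.147). Without both muscle-bearing libraries Saa3 passed (edgeR adjusted p = 0.028), and Serpina3n (0.0615) and Hp (0.156) did not. Hp was also lost with library totals in place of TMM (0.0567), with no filter on low counts (0.0529) and with a block for replicate number (0.0755).

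Of 12 tested genes for receptor shedding and for inducers of these cytokines 1 rose and 0 fell by edgeR (1 and 0 at unadjusted p under 0.05), with a median log2 fold change of -0.10. Il1r1, the receptor of interleukin 1, had 317, 447 and 229 CPM in CCSP/TGFalpha replicates 1 to 3, against 95.7, 79.9 and 99.5 CPM in CCSP/- replicates 1 to 3. The groups were far apart, with a fold change of 3.61 and a 95% interval of 2.43 to 5.35 (edgeR adjusted p = 0.00621), and the call held in all 14 alternative settings. CCSP/TGFalpha replicate 2 had the highest level of both Il1r1 and Osmr.

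**Figure D4:**
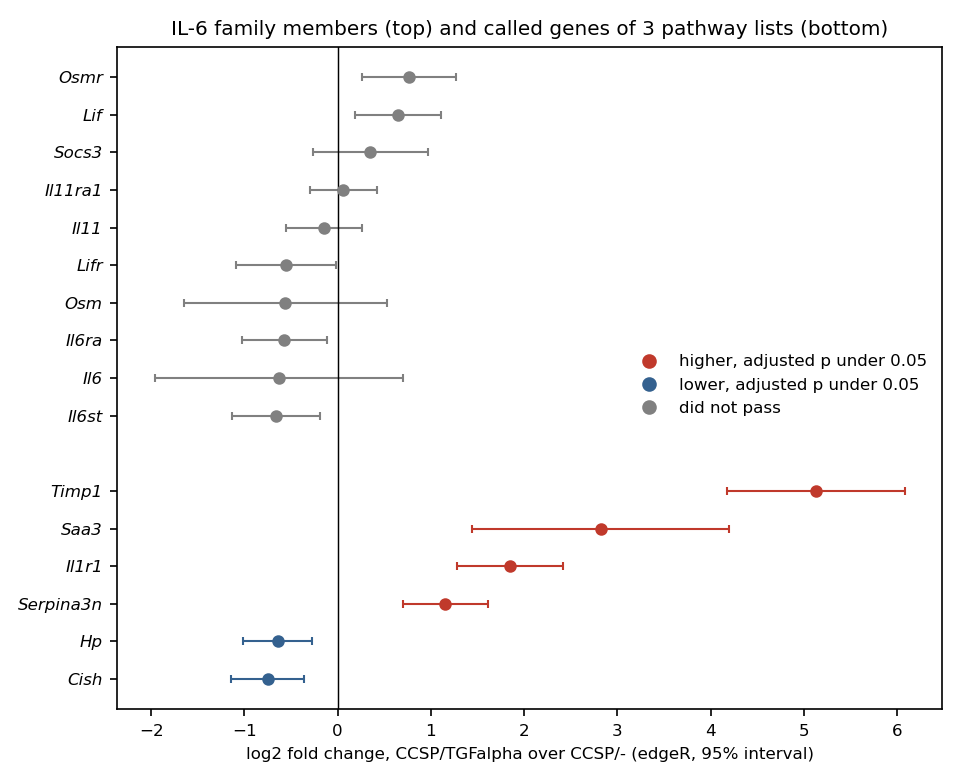
Log2 fold change of CCSP/TGFalpha over CCSP/- lungs with its 95% interval from edgeR, for the 10 members (top) and the 6 genes of 3 pathway lists that passed (bottom), coloured by the test. The members range from -0.66 (Il6st) to 0.77 (Osmr), and these called genes from -0.75 (Cish) to 5.13 (Timp1).

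**Figure D5:**
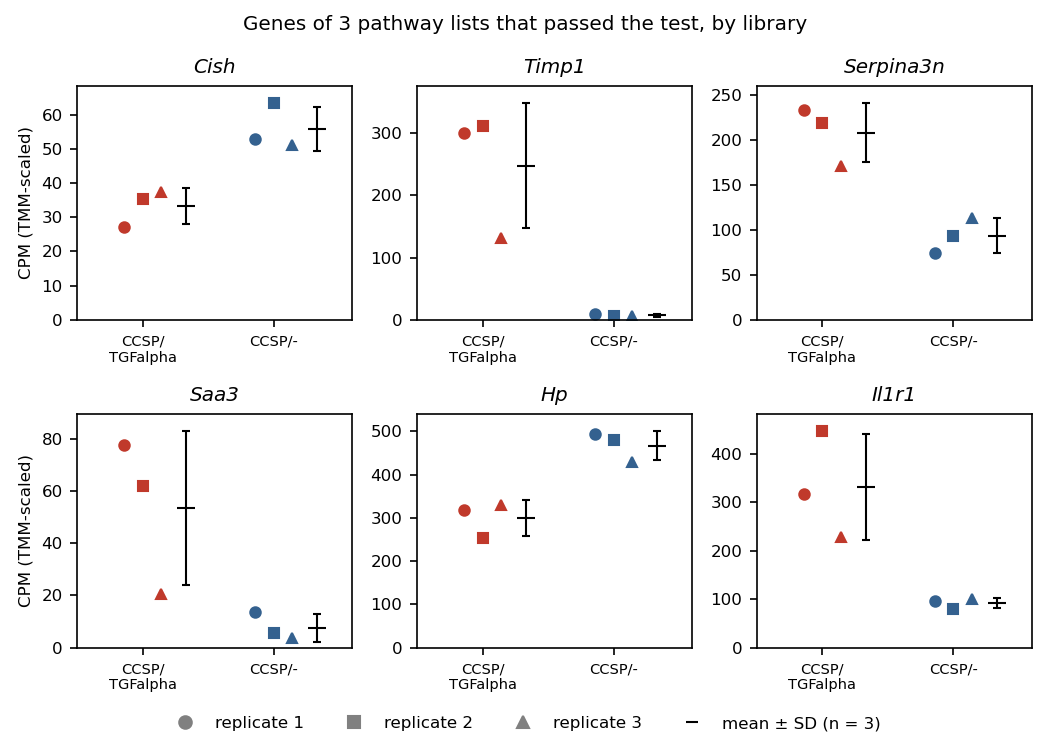
CPM of the 6 called genes of 3 pathway lists in each library, CCSP/TGFalpha on the left and CCSP/- on the right, with mean ± SD (n = 3). Timp1, Serpina3n, Saa3 and Il1r1 lie higher and Cish and Hp lower in every CCSP/TGFalpha library.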

How the data were processed

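Total RNA of mouse lung was column-purified and made into Illumina libraries, as the labels' protocols state. Counts per gene, not normalized, were deposited as 1 table of 24061 gene IDs. The submitters' processing notes name bcl2fastq, CASAVA 1.8, TopHat and DESeq with build mm10. The counting tool, its strand setting and the annotation are not given in the sources used here. RefSeq on GRCm38.p6 named 23976 IDs and left 85 unnamed, which hold 1.73 to 3.8% of counts and stayed in the totals.

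All genes were fitted with edgeR 4.0.16 in R 4.3.3 (quasi-likelihood, TMM, filterByExpr, group only, Benjamini-Hochberg over 16089 genes). The step was tested on simulated data. CPM uses TMM-scaled totals, with 3 libraries per group, and CPM per kb uses GENCODE M21 exon lengths (basic annotation, and the full one as an added alternative). Libraries of a group differed far beyond sampling noise (chi-square over its degrees of freedom 46.6 or more). Alternatives were other scalings, filters, DESeq2 1.42.0, limma-voom (limma 3.58.1), a replicate block and libraries left out.

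Members and lists were chosen with earlier results of these data known. Named are the members, Tgfa and, per pathway list, at most 8 called genes. Stat3, the marker genes and the untested genes were added after their values were seen. The tested genes of 1 further pathway list enter the summed counts and are otherwise not reported here.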

Additional observations from a re-analysis of the deposited data

How the results depend on the processing

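Across 14 alternative settings no member passed by edgeR or limma-voom, and by DESeq2 1 was higher and 1 was lower. Il11ra1 changed sign without CCSP/TGFalpha replicate 2 (log2 fold change -0.05, and -0.05 to 0.15 with 1 library left out), and every other named gene kept its direction. Over all genes, 1279 rose and 1224 fell with DESeq2, beside 810 and 530 with edgeR, and 307 rose and 166 fell without both muscle-bearing libraries, a setting chosen after seeing the data. With 1 library left out 204 to 606 genes rose and 34 to 482 fell, fewest without CCSP/- replicate 3. Pathway genes that rose numbered 2 to 5 with 1 library left out and 3 without both muscle-bearing libraries. Those that fell numbered 0 to 1 with 1 library left out, 0 without both muscle-bearing libraries, and 1 with library totals only, with no filter or with the replicate block. The cause was not tested. Whether the replicate numbers pair the libraries is not known. Correlations of deviations were 0.42, -0.05 and 0.22 for libraries of the same number and -0.49 to 0.38 for the others. With so few libraries these values cannot decide it. With the replicate block no member passed and Hp was not called (edgeR adjusted p = 0.0755). For the Osmr to Lifr log2 ratio the block gives 1.30 by construction, since the groups are of equal size (exact sign-flip p = 0.25, the smallest 3 pairs allow). Depth limits Il6 and Osm most, with 11 to 152 reads per library.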
